A study of Mus musculus with 8 samples.

Results

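The genes described here encode the mitochondrial fatty acid oxidation machinery of the liver and its ketogenic outlet, with the factors that control them. They were chosen by function, with earlier results of these data known. The list holds 32 named genes whose Ensembl identifiers carry those symbols in the GRCm38 annotation (GENCODE M21). All 32 had a row among the 18095 genes of the count table, and all 32 were among the 14866 genes that passed edgeR's expression filter. Liver RNA was sequenced from 4 HFD WT and 4 HFD Inpp4b-/- male mice, 1 library per mouse, to ask which transcripts differ between the genotypes on a high-fat diet. Inpp4b-/- mice carry a disrupted gene for inositol polyphosphate-4-phosphatase type II B, a lipid phosphatase that lowers phosphoinositide signalling. The labels give an age of 12 weeks for every mouse and name C57BL/6, whereas the study's methods describe a knockout line bred into FVB. Both groups were raised on the same high-fat diet, which the dams had received before mating and while nursing and which the male pups then kept. The knockout is not limited to the liver, so an effect of the gene in liver cells cannot be told apart from one that reaches the liver through other organs.

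Fatty acids that enter a hepatocyte are activated to acyl-CoA by long-chain acyl-CoA synthetases, and the carnitine shuttle carries the acyl group into the mitochondrion. Each turn of the oxidation spiral then uses an acyl-CoA dehydrogenase, a hydratase, a hydroxyacyl-CoA dehydrogenase and a thiolase, and the electrons of the first step reach the respiratory chain through the electron transfer flavoprotein. In the liver much of the acetyl-CoA made in this way is turned into ketone bodies for export to other tissues. The nuclear receptor PPARA, activated by fatty acids, is the best known transcriptional driver of these genes in fasting and during fat feeding.

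Total counts were 25893430 to 31427831 in the libraries labelled HFD WT and 32738435 to 36662531 in those labelled HFD Inpp4b-/-, so every library of the second group was the deeper. Inpp4b itself had 6, 20, 5 and 8 counts in replicates 1 to 4 labelled HFD WT. It had 33, 10, 9 and 14 counts in replicates 1 to 4 labelled HFD Inpp4b-/-, so it was not lower there. In CPM (counts scaled to a library size of 1e+06 after TMM normalization) it was at 0.168 to 0.630 and 0.263 to 0.916. These groups overlapped (two-sided exact permutation p = 0.486), and the gene was below the expression filter. Counts per gene cannot show a deletion within the gene, so they do not test the knockout, and the directions below rest on the labels. The 6 hepatocyte markers summed to 76276 to 81016 CPM in the HFD WT libraries and 79394 to 97672 CPM in the others. Of these markers 3 of 6 had a fitted log2 fold change above 0 (4 with upper quartile scaling). Alb made up most of each sum. Alb and Ttr lay wholly above HFD WT (log2 fold changes 0.24 and 0.31), whereas Cps1 overlapped (-0.49). None of the 37 tested marker genes of the cell type lists passed the test described next (5 higher and 1 lower at an unadjusted p under 0.05, 2 called by DESeq2). The 6 macrophage and Kupffer cell markers summed to 37.5 to 106 CPM and 84.7 to 135 CPM in the same order, with 6 of 6 fitted above 0. The 5 cholangiocyte markers summed to 23.7 to 31.6 CPM and 29.7 to 40.6 CPM, with 4 of 5 above 0. Among them Spp1 was higher at an unadjusted p under 0.05, without overlap, and was called by DESeq2. Sox9 was lower at an unadjusted p under 0.05, and its groups overlapped. For the endothelial markers the sums were 108 to 136 CPM and 93.2 to 142 CPM, with 2 of 6 above 0 (3 with upper quartile scaling and 1 with DESeq2's size factors). The 6 stellate cell markers summed to 133 to 188 CPM and 145 to 194.5 CPM, with 4 of 6 above 0. Of these, Col1a1, Col3a1 and Lrat were higher at an unadjusted p under 0.05, and DESeq2 called Lrat, whose groups did not overlap. Des and Dcn were the 2 stellate cell markers fitted below 0, at log2 fold changes of -0.30 and -0.12, and both overlapped. The 4 erythroid markers summed to 109 to 430.1 CPM and 208 to 346 CPM. Of the lymphocyte markers, Cd3e and Cd8a had no row and the rest summed to 3.76 to 8.09 CPM and 5.08 to 8.57 CPM. None of the 5 adipocyte markers (Adipoq, Lep, Plin1, Cfd and Ucp1) had a row, and of 6 pancreas and muscle markers only Cela1 had one, at 32.5 to 59.1 CPM and 42.3 to 58.8 CPM. The part of these cell types in the values below was not tested. In bulk liver, fewer cells of a type and less RNA per cell cannot be told apart.

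The genes lay higher in the libraries labelled HFD Inpp4b-/- as a group, by small amounts, and few of them passed the test singly. Bdh1 and Acat1, both enzymes of ketone body metabolism, rose, which made 2 of 32 genes (6.25%) past a Benjamini-Hochberg adjusted p of 0.10 and a fold change of 1.3 in edgeR's quasi-likelihood test. Over all tested genes 1.17% passed in either direction and 0.552% upward, and 0 of the 32 fell, against 0.619% of all genes. The fitted log2 fold change was above 0 for 27 of 32 genes (84.4%), compared with 50.4% of all tested genes, and for 27 with DESeq2's size factors and 29 with upper quartile scaling. Its median was 0.22 over the 32 genes and 0.00 over all tested genes. In 11 of 32 genes (34.4%) every library labelled HFD Inpp4b-/- lay above every HFD WT library, and the same held for 4.63% of all genes. No gene of the 32 showed the opposite pattern, which 4.09% of all genes did. An unadjusted p under 0.05 with a positive sign was seen in 14 of 32 genes (43.8%) and in 6.8% of all genes, and with a negative sign in 0 of 32 and 7.14%. These counts over the 32 are descriptions, since genes of 1 pathway in 1 liver do not vary independently. The shares over all genes include genes near the expression filter. A gene with little spread between libraries separates at a smaller change, and genes of like level and spread were not drawn for comparison. With DESeq2, 3 of 32 genes passed the same thresholds (9.38%, Acot2 besides these 2), against 4.04% of the 17016 genes to which it gave an adjusted p (1.92% higher and 2.12% lower), and all 3 were higher. Decr1, Hadh, Slc25a20 and Acsl5 had DESeq2 adjusted p of 0.0128, 0.0153, 0.0432 and 0.0939, and missed its call only because their fold changes were under 1.3. When every library was thinned to the depth of the shallowest, Bdh1 and Acat1 again passed in edgeR.

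**Figure D1:**
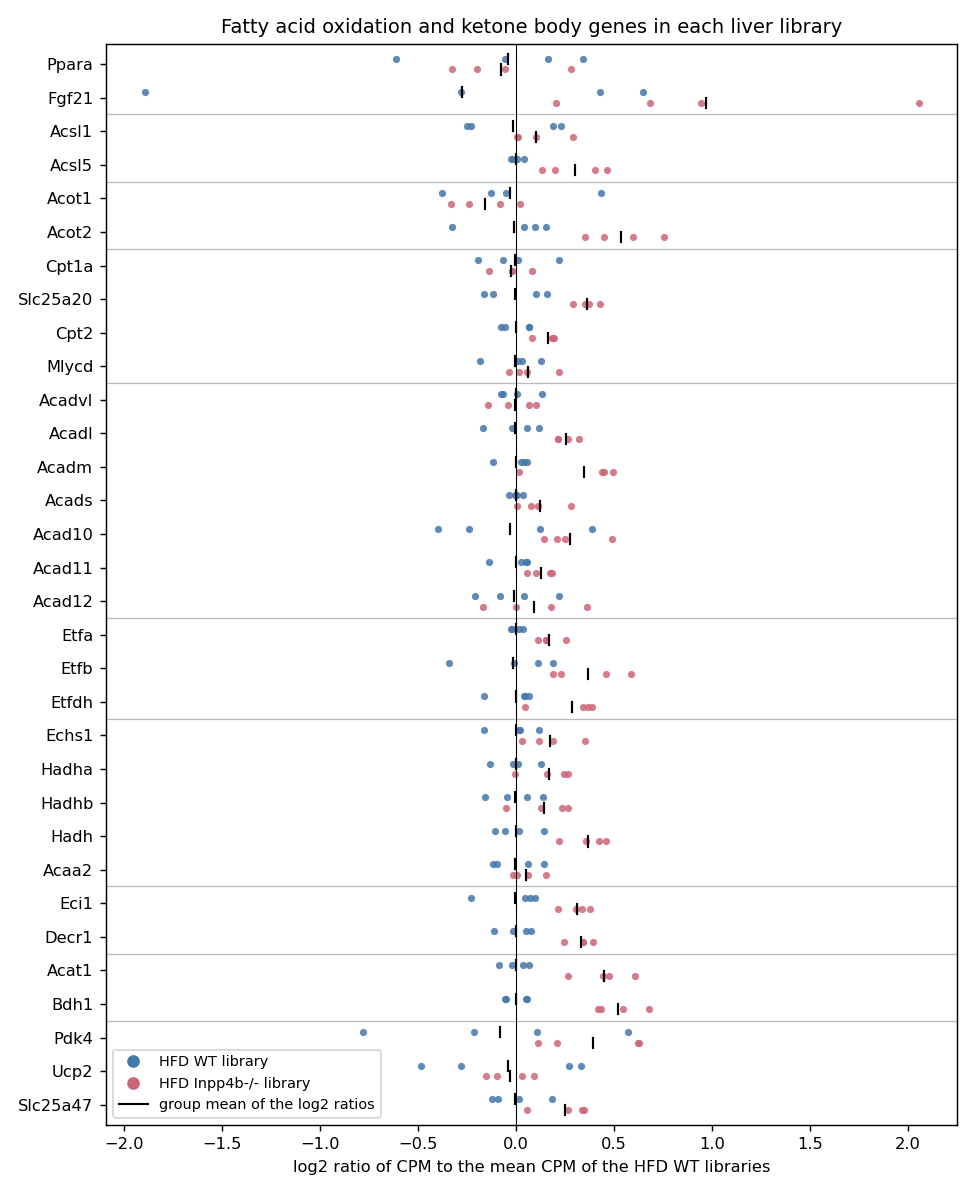
Each row is 1 gene, with the steps of the pathway from top to bottom separated by grey lines; points are the 8 libraries as log2 ratios of CPM to the mean CPM of the HFD WT libraries, and black ticks are the group means of those ratios. The red points lie wholly to the right of the blue ones in 11 of 32 rows, among them Acat1 and Bdh1, and the groups are mixed in rows such as Ppara, Cpt1a and Acadvl.

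Both genes that passed encode enzymes of ketone body metabolism. Bdh1 makes 3-hydroxybutyrate from acetoacetate in the mitochondrial matrix. Its level was 258, 256, 278 and 276 CPM in replicates 1 to 4 labelled HFD WT and 427, 389.8, 357 and 360.5 CPM in replicates 1 to 4 labelled HFD Inpp4b-/-. The 2 groups did not overlap, and replicate 1 labelled HFD Inpp4b-/- was the highest. Bdh1 rose 1.44-fold (log2 fold change 0.52, SE 0.09, edgeR's quasi-likelihood test, Benjamini-Hochberg adjusted p = 0.0356, n = 4 per genotype). Acat1 joins 2 acetyl-CoA to acetoacetyl-CoA, the first step of ketogenesis, and also serves isoleucine breakdown and ketone use. It stood at 368, 352, 392 and 383 CPM in the HFD WT replicates and 519, 569, 508 and 449 CPM in those labelled HFD Inpp4b-/-. Again the groups did not overlap, with replicate 2 highest and replicate 4 lowest of the libraries labelled HFD Inpp4b-/-. Acat1 rose 1.37-fold (log2 fold change 0.45, SE 0.09, edgeR's quasi-likelihood test, Benjamini-Hochberg adjusted p = 0.0804). For both genes the two-sided exact permutation p was 0.0286, the smallest that 4 libraries against 4 allow. Both calls depended on single libraries. By edgeR's quasi-likelihood test with Benjamini-Hochberg adjustment, Bdh1 had an adjusted p of 0.103 without replicate 1 labelled HFD Inpp4b-/-, 0.128 without replicate 2 and 0.101 without replicate 1 labelled HFD WT, and kept its call without any other library. Acat1 kept its call only without replicate 4 labelled HFD Inpp4b-/- (adjusted p = 0.0679). Without replicates 1, 2 or 3 labelled HFD Inpp4b-/- its adjusted p in edgeR's quasi-likelihood test was 0.223, 0.203 and 0.185, and without HFD WT replicates 1, 2, 3 or 4 it was 0.189, 0.108, 0.134 and 0.117. For Bdh1, 8.42% of the transcript windows are antisense to the gene model Gm15743, and reads of the 2 cannot be told apart unless counting used strand. Leaving out a library kept the log2 fold change within 0.47 to 0.56 for Bdh1 and 0.40 to 0.51 for Acat1.

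Of 5 genes for ketone body synthesis, use and transport outside the 32, 0 passed edgeR's quasi-likelihood test or DESeq2, 0 had an unadjusted p under 0.05, and 2 had a fitted change above 0, with a median log2 fold change of -0.24. Among the 5 was Oxct1, which lets cells other than hepatocytes use ketone bodies. It was low and overlapped between the groups, at 3.03 to 4.51 CPM and 2.303 to 3.73 CPM in the libraries labelled HFD WT and HFD Inpp4b-/-.

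**Figure D2:**
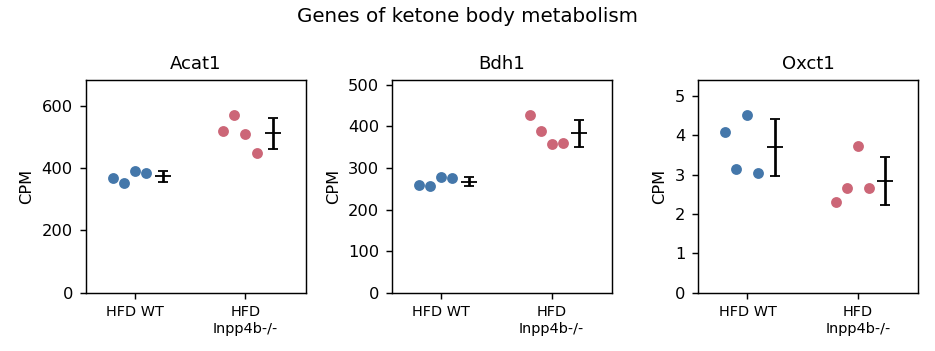
CPM of 3 genes in each library, with the group mean and SD (n = 4) as a black tick and bar beside the points; every axis starts at 0. The libraries labelled HFD Inpp4b-/- stand above all HFD WT libraries for Acat1 and Bdh1, and the groups overlap for Oxct1.

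Promoter sequence was examined because the genes lay on the same side together, and a motif match is given only as a description. RefSeq promoters (GRCm38.p6, from 250 bases before to 50 bases after a start site) were found for 29 of the 32 genes, 31 promoters in all. Acat1, Decr1 and Acaa2 had no entry. The PPAR response element in its exact form, AGGTCANAGGTCA, was searched on both strands and occurred in 0 of these 31 promoters and in 0.0396% of all 32851 promoters. With 1 free base in each repeat (AGGNCANAGGNCA, which includes the exact form) it was in 0 of 31 and in 0.381%. Both forms are so rare that 0 of 31 is the likely outcome for any 31 promoters. Looser forms and sequence outside these windows were not searched, so whether these genes have PPAR elements was not tested. The single repeat AGGTCA, a site for nuclear receptors and part of the exact form, was in 5 of 31 promoters (16.1%), those of Acadm, Echs1, Acadvl, Slc25a47 and Cpt1a, and in 16.3% of all. None of these 5 genes passed the test. The element TCAAGGTCA, bound by estrogen-related receptors, was in 0 of 31 and in 0.423% of all promoters, again too rare for 31 promoters to tell. The GC box GGGCGG was in 19 of 31 (61.3%) and in 35.7% of all, and these promoters had a median GC content of 60.7% against 52.7% for all. CCAAT was in 13 of 31 (41.9%) and 37.4%, and CACGTG in 1 of 31, that of Fgf21 (3.23%), and 7.15%. Sequence before the RefSeq starts is shown on the plus strand for Bdh1, which rose and has 2 RefSeq starts, for Slc25a20, whose groups did not overlap, and for Cpt1a, whose groups did. Capitals mark GGGCGG and AGGTCA on either strand, and each stretch ends where a GENCODE exon of its gene begins and holds no exon of that gene. The second Bdh1 stretch and that of Cpt1a lie inside the gene bounds, since another transcript of the gene starts further upstream, and the former also overlaps an exon of the antisense gene model Gm15743. The first Bdh1 start is preceded by chr16:31422047-31422279, the second by chr16:31428503-31428747, Slc25a20 by chr9:108661886-108662087 and Cpt1a by chr19:3323051-3323284.
Bdh1, first start: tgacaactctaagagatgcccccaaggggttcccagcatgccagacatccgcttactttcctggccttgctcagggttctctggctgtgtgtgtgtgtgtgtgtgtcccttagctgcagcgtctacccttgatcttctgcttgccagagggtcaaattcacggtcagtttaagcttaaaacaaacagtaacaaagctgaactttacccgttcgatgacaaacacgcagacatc
Bdh1, second start: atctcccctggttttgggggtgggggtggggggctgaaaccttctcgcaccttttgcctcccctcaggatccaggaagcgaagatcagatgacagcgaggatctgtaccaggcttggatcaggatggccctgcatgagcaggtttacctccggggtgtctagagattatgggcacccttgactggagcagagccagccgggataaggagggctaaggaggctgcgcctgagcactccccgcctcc
Slc25a20: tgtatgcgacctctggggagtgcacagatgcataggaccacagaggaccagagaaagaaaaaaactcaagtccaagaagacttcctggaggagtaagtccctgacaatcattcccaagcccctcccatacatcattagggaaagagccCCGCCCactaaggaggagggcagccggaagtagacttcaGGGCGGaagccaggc
Cpt1a: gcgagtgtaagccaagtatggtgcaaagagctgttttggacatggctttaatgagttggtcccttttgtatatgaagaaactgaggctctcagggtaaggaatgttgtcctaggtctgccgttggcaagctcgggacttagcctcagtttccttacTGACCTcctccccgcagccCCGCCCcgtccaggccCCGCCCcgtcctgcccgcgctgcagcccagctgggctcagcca
Neither stretch of Bdh1 held either motif. That of Slc25a20 held 2 GC boxes, and that of Cpt1a held 2 GC boxes and 1 such repeat, whose first base lies 94 bases before the RefSeq start. The promoter windows searched above run past these stretches. There the window of the second Bdh1 start held a GC box, with its first base at 16 from the RefSeq start. Those of Slc25a20 and Cpt1a each held a further GC box there, at -10 and 21. Bdh1 is thus among the genes with a GC box.

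Of the 6 genes for activation and entry, 0 passed edgeR's quasi-likelihood test or DESeq2, 2 were higher at an unadjusted p under 0.05, and 3 lay wholly above HFD WT. Acsl1, the main synthetase of liver, was at 1789, 1338, 1841 and 1319 CPM in the HFD WT replicates and 1581, 1919, 1685 and 1577 CPM in those labelled HFD Inpp4b-/-. HFD WT replicates 2 and 4 were low and the groups overlapped (log2 fold change 0.11, 95% interval -0.21 to 0.42). Acsl5, a second synthetase of the outer mitochondrial membrane and endoplasmic reticulum, was tight in HFD WT at 257, 249.9, 247 and 245 CPM. In the replicates labelled HFD Inpp4b-/- it was at 286, 273, 329.6 and 344 CPM, all above HFD WT, with replicates 3 and 4 highest. The log2 fold change was 0.30 (SE 0.09, edgeR's quasi-likelihood test, Benjamini-Hochberg adjusted p = 0.2004), short of the threshold. Cpt1a, the outer membrane carnitine palmitoyltransferase that malonyl-CoA inhibits, was at 386, 290.2, 334 and 317 CPM and 327, 302, 327 and 350.3 CPM. These groups overlapped, with a 95% interval of the log2 fold change of -0.25 to 0.21. Slc25a20, the carnitine-acylcarnitine carrier of the inner membrane, was at 132, 109.7, 127 and 106 CPM in HFD WT and 145, 159.7, 152 and 154 CPM in the replicates labelled HFD Inpp4b-/-. The groups were apart and the second was the tighter (log2 fold change 0.36, SE 0.09, edgeR's quasi-likelihood test, Benjamini-Hochberg adjusted p = 0.143), yet the call was not reached. Cpt2, which returns the acyl group to CoA inside the mitochondrion, was at 164, 151, 165 and 149 CPM and 179.6, 167, 179 and 178 CPM. Its groups were also apart, by less than 2 CPM at the nearest libraries, and its 95% interval of -0.01 to 0.33 included 0. Mlycd, which removes malonyl-CoA, overlapped at 89.8 to 112 CPM and 99.4 to 119 CPM. The ratio of Cpt1a to Cpt2 counts was 2.35, 1.92, 2.03 and 2.13 in the HFD WT replicates and 1.82, 1.81, 1.82 and 1.96 in those labelled HFD Inpp4b-/-. These ratios overlapped (two-sided exact permutation p = 0.0571, adjusted p = 0.171 over the 6 ratios examined, which were chosen with the genes' values known).

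**Figure D3:**
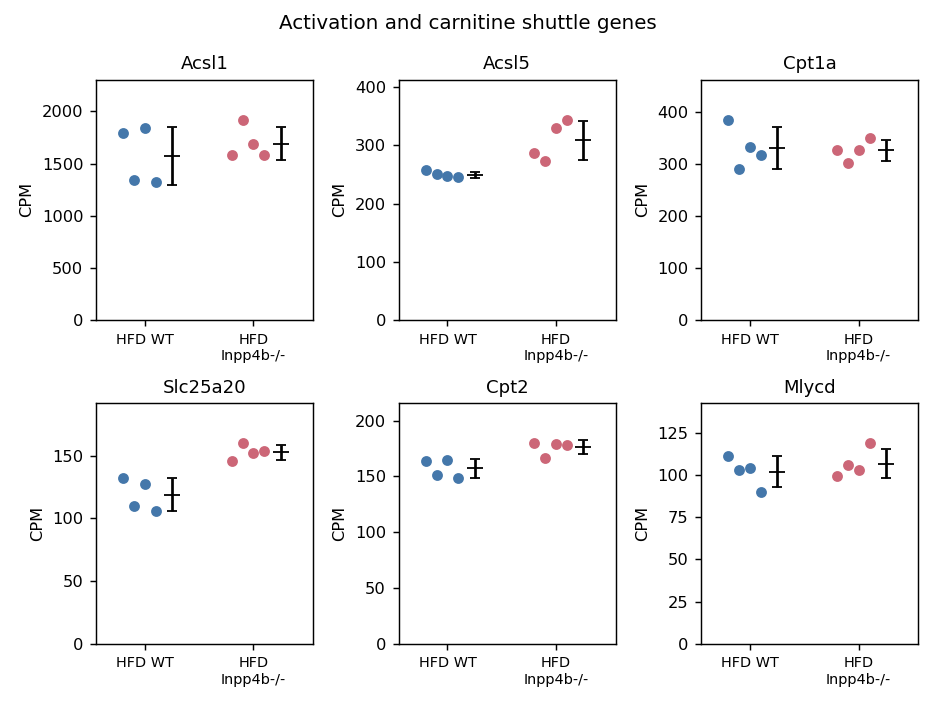
CPM of 6 activation and shuttle genes in each library, with the group mean and SD (n = 4) in black; every axis starts at 0. The libraries labelled HFD Inpp4b-/- lie above all HFD WT libraries for Acsl5, Slc25a20 and Cpt2, and the groups overlap for Acsl1, Cpt1a and Mlycd.

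Among 9 further genes of fatty acid uptake and activation, 1 passed edgeR's quasi-likelihood test and it fell, with 2 higher and 1 lower at an unadjusted p under 0.05. DESeq2 called Fabp1, the liver fatty acid binding protein, besides it, at 3133 to 5273 CPM in HFD WT and 5735 to 6523 CPM in the libraries labelled HFD Inpp4b-/-, with no overlap. Acsl4, a synthetase that prefers arachidonate and other polyunsaturated acids, was at 125, 88.9, 113 and 131 CPM in the HFD WT replicates and 44.9, 53.6, 69.6 and 71.1 CPM in those labelled HFD Inpp4b-/-. The groups did not overlap, and the log2 fold change was -0.94 (SE 0.17, edgeR's quasi-likelihood test, Benjamini-Hochberg adjusted p = 0.0528). The call was lost without replicate 1, 2 or 3 labelled HFD Inpp4b-/- (adjusted p = 0.109, 0.175 and 0.108 in edgeR's quasi-likelihood test) and without HFD WT replicate 1 or 3 (0.134 and 0.106). Acsl1, Acsl5 and Acsl4 thus had fitted log2 fold changes of 0.11, 0.30 and -0.94, and the differences between these changes were not tested. Of the 5 genes listed for carnitine and malonyl-CoA, 0 passed in edgeR's quasi-likelihood test (1 at an unadjusted p under 0.05, and 1, Crat, with DESeq2) and 4 had a fitted change above 0. With upper quartile scaling edgeR also called Crat.

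The acyl-CoA dehydrogenases, which start each turn of the spiral for chains of different length, numbered 7. By edgeR's quasi-likelihood test and by DESeq2 0 of 7 passed, with 2 higher at an unadjusted p under 0.05, and 6 of 7 had a fitted change above 0 (7 of 7 with upper quartile scaling). Acadvl, for very long chains, overlapped at 217 to 250.02 CPM in HFD WT and 207 to 245 CPM in the libraries labelled HFD Inpp4b-/-, and 14.9% of its windows are antisense to Dvl2. Acadl, for long chains, was at 272, 245, 286 and 299 CPM and 332, 320.0, 345 and 319.8 CPM. Its groups were apart (log2 fold change 0.25, SE 0.09, edgeR's quasi-likelihood test, Benjamini-Hochberg adjusted p = 0.237) without reaching the threshold. Acadm, for medium chains, stood at 412, 366, 408 and 403 CPM in the HFD WT replicates and 541, 560.4, 537 and 401 CPM in those labelled HFD Inpp4b-/-. Replicates 1 to 3 labelled HFD Inpp4b-/- lay above every HFD WT library and replicate 4 within their range. The log2 fold change was 0.36 (SE 0.12, edgeR's quasi-likelihood test, Benjamini-Hochberg adjusted p = 0.216), and without replicate 4 it was 0.46 with an adjusted p of 0.0912, past both thresholds. Acads, for short chains, was at 176 to 185 CPM and 181 to 219 CPM and overlapped. Acad11, whose substrates are very long acids, was at 223 to 254 CPM and 254 to 278 CPM, an overlap set by HFD WT replicate 1 and replicate 3 labelled HFD Inpp4b-/-. The neighbouring genes Acad10 and Acad12 were low, with HFD WT means of 29.4 ± 7.30 CPM and 10.7 ± 1.36 CPM (SD, n = 4), and both overlapped. Of the 100-base windows of their transcripts, 7.45% for Acad10 and 7.12% for Acad12 also occur in other genes, chiefly in each other, so their counts are uncertain.

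Electrons from all these dehydrogenases pass through the flavoprotein subunits Etfa and Etfb to the quinone oxidoreductase Etfdh. None of the 3 passed edgeR's quasi-likelihood test or DESeq2, though 3 of 3 were higher at an unadjusted p under 0.05. Etfa was the most even, at 356, 342, 351 and 343 CPM in the HFD WT replicates and 376, 388, 415 and 386 CPM in those labelled HFD Inpp4b-/-. The groups were apart, yet the change was small (log2 fold change 0.17, SE 0.07, edgeR's quasi-likelihood test, Benjamini-Hochberg adjusted p = 0.355). Etfb was at 38.6, 26.7, 33.6 and 36.6 CPM and 38.6, 39.6, 50.9 and 46.6 CPM, with HFD WT replicate 2 lowest and HFD WT replicate 1 just above replicate 1 labelled HFD Inpp4b-/-. Its counts are uncertain, because 35.8% of its 100-base transcript windows also occur in the overlapping gene model Gm45233. Etfdh was at 268, 229, 264 and 265 CPM and 335, 331, 324 and 264 CPM. HFD WT replicate 2 and replicate 4 labelled HFD Inpp4b-/- were each low in their group, and replicate 4 fell among the HFD WT values. Counts of Etfa over Etfb were 9.23, 12.8, 10.5 and 9.38 in the HFD WT replicates and 9.74, 9.78, 8.15 and 8.29 in the others (two-sided exact permutation p = 0.171, adjusted p = 0.24 over 6 ratios). Counts of Etfa over Etfdh were 1.33, 1.498, 1.33 and 1.295 in the HFD WT replicates and 1.12, 1.17, 1.28 and 1.46 in the others (two-sided exact permutation p = 0.2, adjusted p = 0.24 over 6 ratios). Both ratios overlapped between the groups.

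Of the 5 hydratase, hydroxyacyl-CoA dehydrogenase and thiolase genes, 0 passed edgeR's quasi-likelihood test or DESeq2, 1 was higher at an unadjusted p under 0.05 and 5 had a fitted change above 0. Hadh, which oxidises short and medium 3-hydroxyacyl-CoA, was at 312, 357, 327 and 301 CPM in the HFD WT replicates and 415, 435, 446 and 378 CPM in those labelled HFD Inpp4b-/-. Every library of the second group was above the first (log2 fold change 0.37, SE 0.09, edgeR's quasi-likelihood test, Benjamini-Hochberg adjusted p = 0.136). Without HFD WT replicate 2, the highest of its group, Hadh passed (log2 fold change 0.41, adjusted p = 0.0926 in edgeR's quasi-likelihood test). Echs1, the short-chain enoyl-CoA hydratase, overlapped at 207 to 251 CPM and 237 to 296 CPM. Acaa2, the thiolase that releases acetyl-CoA, also overlapped, with means of 1039 ± 91.8 CPM and 1077 ± 57.2 CPM (SD, n = 4) and a 95% interval of the log2 fold change of -0.16 to 0.26. Hadha and Hadhb encode the 2 subunits of the trifunctional protein, which carries out the last 3 steps on long chains, and they are transcribed away from each other on chromosome 5. In GENCODE M21 Hadha ends at 30155162 and Hadhb begins at 30155248, with 85 bases between them, and their RefSeq promoter windows share 228 bases. Hadha was at 403, 372, 445 and 411 CPM in the HFD WT replicates and 483, 490.1, 455 and 406 CPM in those labelled HFD Inpp4b-/-. Hadhb was at 197, 170.3, 209 and 184 CPM and 224, 228, 208 and 183 CPM. In both genes replicate 4 labelled HFD Inpp4b-/- was the lowest of its group and fell within the HFD WT range. The counts of Hadha over Hadhb were 2.04, 2.18, 2.13 and 2.23 in the HFD WT replicates and 2.16, 2.15, 2.19 and 2.21 in the others (two-sided exact permutation p = 0.543, adjusted p = 0.543 over 6 ratios). Of Hadhb's transcript windows, 14.8% also occur in the gene models Gm13910 and Gm9108.

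Unsaturated fatty acids need auxiliary enzymes to pass through the spiral, and both of those among the 32 lay apart between the groups. Decr1, the 2,4-dienoyl-CoA reductase, was at 217, 191, 214 and 204 CPM in the HFD WT replicates and 262, 270.4, 261 and 244 CPM in those labelled HFD Inpp4b-/-. With a log2 fold change of 0.33 (SE 0.08, edgeR's quasi-likelihood test, Benjamini-Hochberg adjusted p = 0.125), it had the lowest adjusted p of those of the 32 that did not pass, and its fold change of 1.26 was also under 1.3. DESeq2 gave Decr1 an adjusted p of 0.0128, and there it missed the call on fold change alone. Eci1, which shifts double bonds, was at 123, 99.5, 125 and 120.4 CPM and 145, 147, 151 and 136 CPM, with HFD WT replicate 2 lowest. Its log2 fold change was 0.31 (SE 0.09, edgeR's quasi-likelihood test, Benjamini-Hochberg adjusted p = 0.192). Of 10 further acyl-CoA dehydrogenase and auxiliary genes, Acot13 alone passed in edgeR's quasi-likelihood test, 3 were higher and 0 lower at an unadjusted p under 0.05, and 8 had a fitted change above 0. DESeq2 called Ech1 as well, as did edgeR with upper quartile scaling. Acot13, a mitochondrial acyl-CoA thioesterase, was at 39.1, 47.7, 40.6 and 48.5 CPM and 61.9, 54.9, 62.5 and 66.8 CPM, with no overlap. It rose by a log2 fold change of 0.48 (SE 0.10, edgeR's quasi-likelihood test, Benjamini-Hochberg adjusted p = 0.0815). By that test the call was lost without any 1 of the libraries labelled HFD Inpp4b-/- (adjusted p = 0.217, 0.131, 0.201 and 0.164 without replicates 1 to 4) and without HFD WT replicate 1 or 3 (0.209 and 0.173).

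The 2 thioesterases among the 32, which release free fatty acid from acyl-CoA, are neighbours on chromosome 12. Cytosolic Acot1 (chr12:84009490-84018371) was at 50.2, 34.1, 35.9 and 28.6 CPM in the HFD WT replicates and 37.8, 31.5, 29.6 and 35.2 CPM in those labelled HFD Inpp4b-/-. Mitochondrial Acot2 (chr12:83987861-83993873) was at 6.27, 5.80, 6.03 and 4.49 CPM and 9.52, 8.54, 7.21 and 7.69 CPM. Acot1 overlapped between the groups (log2 fold change -0.15, 95% interval -0.51 to 0.21), and Acot2 did not (log2 fold change 0.54, SE 0.16, edgeR's quasi-likelihood test, Benjamini-Hochberg adjusted p = 0.185). Of the fits tried, DESeq2 alone called Acot2 (adjusted p = 0.0546). Within a library, Acot1 counts were 8, 5.88, 5.96 and 6.37 times those of Acot2 in the HFD WT replicates and 3.97, 3.69, 4.10 and 4.57 times in those labelled HFD Inpp4b-/-. The ratios did not overlap (two-sided exact permutation p = 0.0286, adjusted p = 0.171 over 6 ratios). The 2 genes are near copies, with 17.1% of the transcript windows of Acot2 also present in Acot1, so the counts of both are uncertain.

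The regulators and the endocrine product overlapped between the genotypes. Ppara was at 92.2, 107, 121 and 62.5 CPM in the HFD WT replicates and 116, 76.4, 83.4 and 92.0 CPM in those labelled HFD Inpp4b-/-. HFD WT replicate 4 was the lowest of all 8, and the interval of the log2 fold change was -0.50 to 0.39. Fgf21, a PPARA-driven hormone that the liver secretes in fasting and stress, varied most, at 2.99, 0.976, 4.88 and 5.68 CPM and 6.99, 15.1, 5.82 and 4.18 CPM. Replicate 2 labelled HFD Inpp4b-/- was the highest and HFD WT replicate 2 the lowest. The fitted log2 fold change of 1.15 (SE 0.52, edgeR's quasi-likelihood test, Benjamini-Hochberg adjusted p = 0.370) was within the spread of its libraries. It was 0.65 without replicate 2 labelled HFD Inpp4b-/- and 0.65 to 1.45 over all libraries left out singly, and the two-sided exact permutation p was 0.114. Pdk4, the kinase that shuts off pyruvate dehydrogenase when fat is burned, was low, with 37 to 101 counts (1.25 to 3.18 CPM) in HFD WT and 77 to 119 counts (2.31 to 3.31 CPM) in the others. Ucp2, an uncoupling protein family member that Kupffer cells also express, was at 15.7, 27.6, 18.1 and 26.5 CPM and 22.4, 19.8, 23.4 and 20.5 CPM, with HFD WT replicates 2 and 4 highest. Those 2 libraries also had the highest macrophage marker sums of HFD WT, at 106.0 CPM each against 37.5 and 71.3 CPM. In replicates 1 to 4 labelled HFD Inpp4b-/- the sums were 119.5, 91.0, 135.3 and 84.7 CPM. Replicates 1 and 3 of that label thus had higher sums than HFD WT replicates 2 and 4, with lower Ucp2. The part of macrophages in Ucp2 was not tested. Slc25a47, a liver carrier of the inner membrane, was at 492, 457, 552 and 447 CPM and 584, 506, 614 and 619 CPM. It overlapped, with HFD WT replicate 3 above replicate 2 labelled HFD Inpp4b-/-. Of 10 further transcriptional and hormonal control genes, such as Ppargc1a and Rxra, 0 passed in edgeR's quasi-likelihood test or with DESeq2 (1 higher at an unadjusted p under 0.05) and 4 had a fitted change above 0. Of 11 PPARA targets outside mitochondrial oxidation, 0 passed in edgeR's quasi-likelihood test and 8 had a fitted change above 0. At an unadjusted p under 0.05 in that test 2 were higher, Acaa1b and Cd36, and 1 was lower, the cytochrome Cyp4a14. DESeq2 called the same 3, and edgeR with upper quartile scaling called Acaa1b. Acaa1b had a log2 fold change of 0.70 without overlap. Cd36 at 0.995 and Cyp4a14 at -0.999 were the ends of the range over the 11, and both overlapped. Across these 50 pathway and target genes, which exclude the 32, 2 passed (1 higher and 1 lower), 7 lay wholly above HFD WT and 1, Acsl4, wholly below. Over all tested genes 1.17% passed, 4.63% lay wholly above and 4.09% wholly below.

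**Figure D4:**
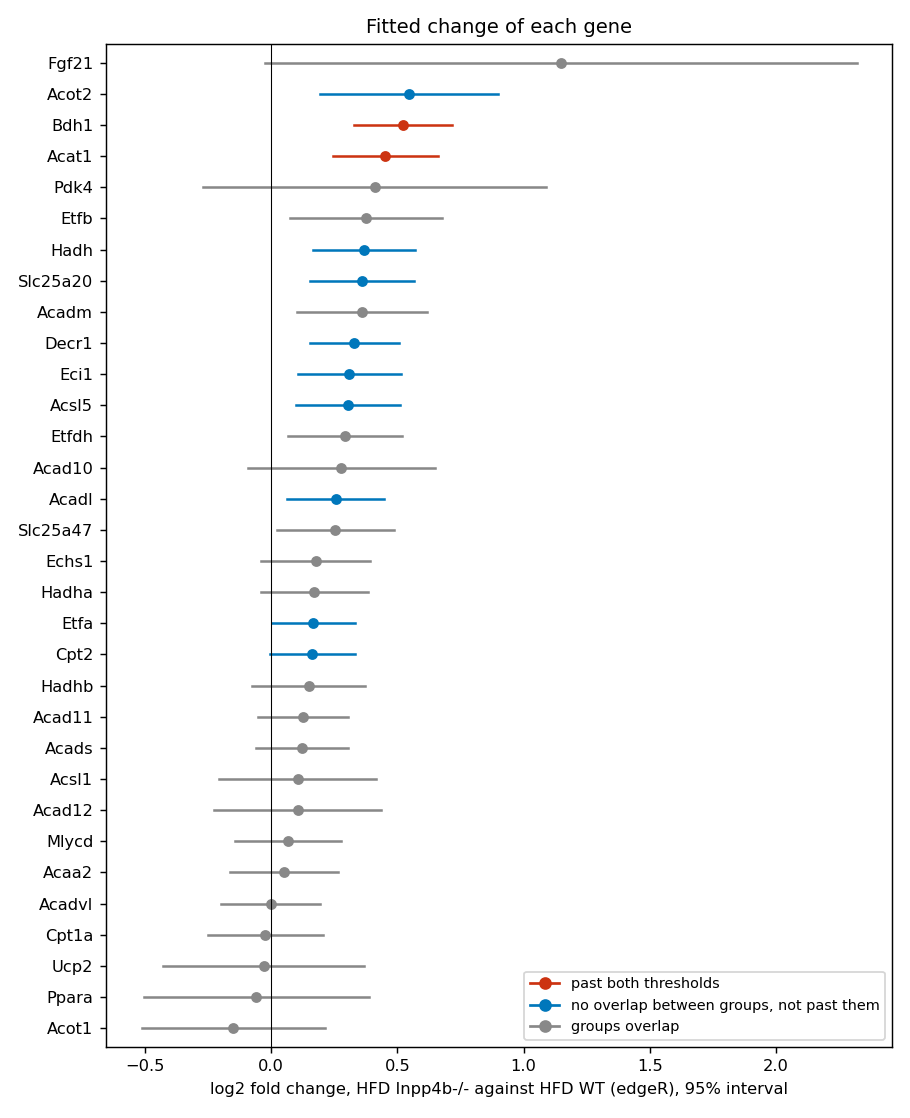
Fitted log2 fold changes of the 32 genes with their 95% intervals, sorted by size; red marks the 2 genes past both thresholds, blue the further genes whose groups did not overlap, and grey those that did. Intervals of 14 genes lie wholly above 0 and none lies wholly below it; that of Fgf21 is the widest.

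Levels were compared between genes only per length, as FPKM (CPM per kilobase of merged exons). The means in HFD WT spanned 1123-fold, from 0.611 ± 0.232 FPKM for Pdk4 to 686 ± 60.5 FPKM for Acaa2 (SD, n = 4). Above 100 FPKM there were 6 genes, namely Acaa2, Etfa (189.8 ± 3.68), Slc25a47 (163 ± 15.97), Acsl1 (149.9 ± 26.9), Acadl (138 ± 11.6) and Acadm (102 ± 5.45). Below 10 FPKM there were 7, namely Acot1, Acad10, Fgf21, Ucp2, Acot2, Acad12 and Pdk4. Of the 31 neighbouring pairs in this order, 20 overlapped between HFD WT libraries, so most of the ranks in the middle were not separated. Acaa2 stood clear of Etfa, and Pdk4 clear of Acad12. The scale depends on the length used. With the longest coding transcript in place of merged exons, 16 of 32 levels moved by over 1.5 times, Echs1 most, from 28.0 ± 2.18 FPKM to 149 FPKM. Acaa2 stayed the highest and Pdk4 the lowest with either length. Of the called genes, Acat1 was at 99.4 ± 4.67 FPKM and Bdh1 at 68.7 ± 2.95 FPKM, ranks 7 and 10 of 32 with merged exons and 9 and 16 with the longest coding transcript.

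**Figure D5:**
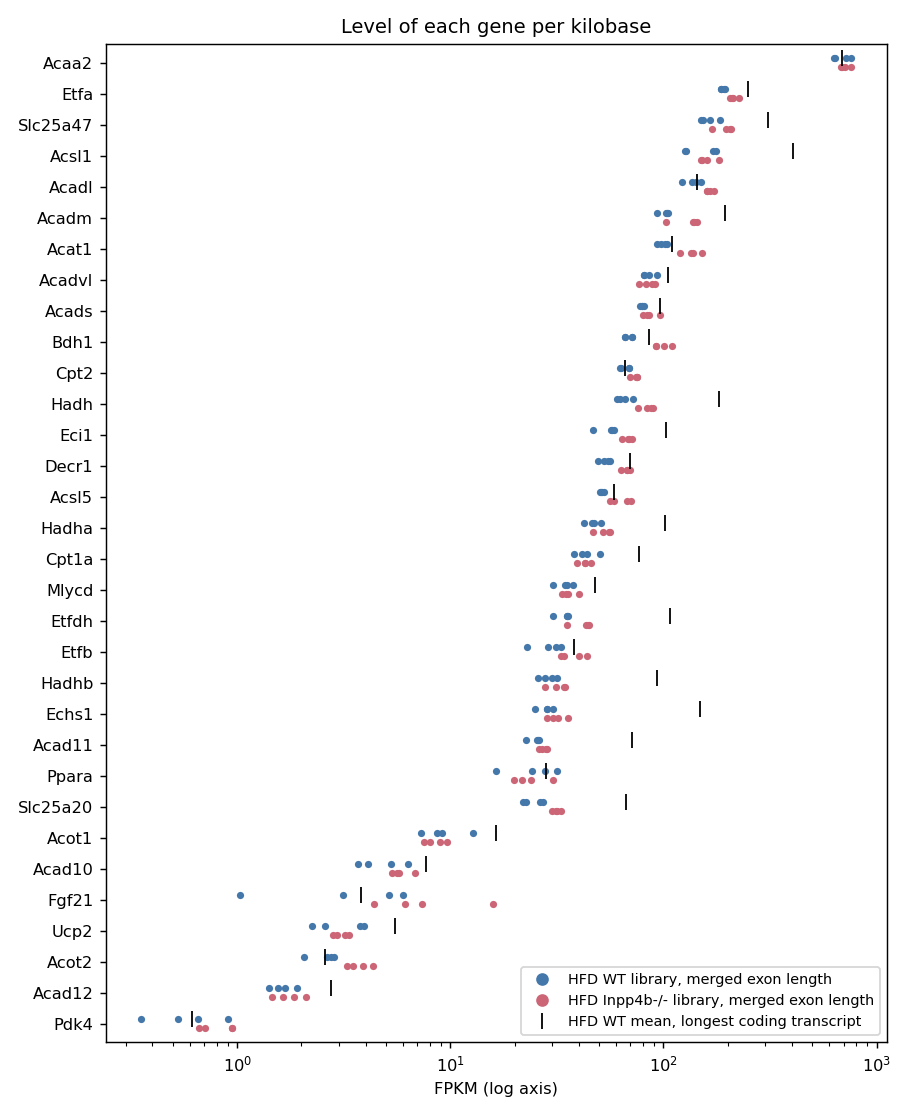
FPKM of the 32 genes in each library on a log axis, ordered by the HFD WT mean with merged exon lengths; black bars give the HFD WT mean with the longest coding transcript instead. Acaa2 tops and Pdk4 ends the order, and in most rows the 2 genotypes differ by much less than the genes do.

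Single libraries stood low in many of the 32 genes at once. HFD WT replicate 4 was the lowest of its group in 16 genes and replicate 2 in 14, whereas replicates 1 and 3 were the lowest in 1 gene each. Of the libraries labelled HFD Inpp4b-/-, replicate 4 was the lowest in 12. The 32 genes together took 8759, 7786, 9003 and 7841 CPM in HFD WT replicates 1 to 4 and 9530.4, 9783, 9786 and 9139.7 CPM in replicates 1 to 4 labelled HFD Inpp4b-/-. These sums did not overlap, and that of replicate 4 was nearest to HFD WT. The median log2 ratio to the HFD WT mean was 0.05, -0.08, 0.05 and -0.06 in the HFD WT replicates, and 0.22, 0.20, 0.27 and 0.20 in the replicates labelled HFD Inpp4b-/-. Within a group the coefficient of variation of a gene had a median of 8.86% in HFD WT and 8.69% in the others, with Fgf21 highest in both. Acsl1 and Mlycd lie on chromosome 8 with Inpp4b, and both overlapped between the groups.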

How the data were processed

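Gene counts of 8 mouse liver libraries were analysed, 4 HFD WT and 4 HFD Inpp4b-/-. Sample labels gave genotype, replicate number and age, and the study's methods gave the diet. RNA was depleted of ribosomal RNA per the labels and sequenced as 150-bp read pairs. The authors mapped the pairs to GRCm38 using HISAT2, and the deposited values are raw HTSeq counts. The annotation release, strand setting and tool versions are not given in the sources used here. A normalized signal that the authors also deposited equals the counts over a library size factor and was not used further.

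The genes and lists were chosen with earlier results of these data known. Identifiers (18095 of 18095) matched GENCODE M21. The fit used edgeR 4.0.16 in R 4.3.3, with TMM, filterByExpr, glmQLFit and glmQLFTest and without covariates. Calls needed an adjusted p (Benjamini-Hochberg, 14866 genes) under 0.10 and a fold change over 1.3. Single genes and ratios were also compared by a two-sided exact permutation test of log2(CPM + 0.1) or log2 ratios, with 70 arrangements. A few further genes of the pathway lists, and results that need them, are not reported here. By rule the 32 genes, Inpp4b, called genes of the lists and marker sums were named. Oxct1, Crat, Ech1, Fabp1, Cela1, Col1a1, Col3a1, Lrat, Des, Dcn, Spp1, Sox9, Alb, Ttr, Cps1, Ppargc1a, Rxra, Cyp4a14, Acaa1b and Cd36 were named after their values were seen. Shared sequence was counted as 100-base windows of GENCODE transcripts present in another gene. The scripts were tested on simulated counts. Alternatives were DESeq2 1.42.0, other scalings, filters, thresholds and pseudocounts, a replicate block and each library left out. Thinning to equal depth and transcript length for FPKM were added after the data were seen.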

Additional observations from a re-analysis of the deposited data

Results flagged for a closer look

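Gaps within each genotype were examined for 68 groups of 4 libraries, and a gap is given here where the highest or lowest library stood farther from the others than Dixon's 95% limit. Chance gives about 1 such group in 20, or 3.4 of 68, and 5 were found. Acadm in replicate 4 labelled HFD Inpp4b-/- was at 401 CPM, with the other replicates of that label at 537 to 560.4 CPM. Etfdh in the same library was at 264 CPM, with the others at 324 to 335 CPM. Cpt2 in replicate 2 labelled HFD Inpp4b-/- was at 167 CPM, with the others at 178 to 179.6 CPM. Among HFD WT libraries, Acad11 in replicate 4 was at 223 CPM against 249.7 to 254 CPM, and Etfdh in replicate 2 was at 229 CPM against 264 to 268 CPM. All 5 values were low rather than high.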

How the results depend on the processing

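Of the 32 genes, 27 kept the sign of their fitted change in every fit tried and 5 turned in at least 1. Between 27 and 30 of the 32 had a change above 0, and their median log2 fold change stayed within 0.17 to 0.24. The number called was 2 with DESeq2's size factors, upper quartile scaling, both other filters, equal depth and no fold threshold, and 3 with DESeq2. Over all genes edgeR called 174 in the main fit and 170 with either of these scalings. It called 160 with the lighter filter and 140 with at least 10 counts in every library. The fold threshold was dropped in edgeR only. In DESeq2 that threshold alone kept out Acsl5, Slc25a20, Hadh and Decr1. At an adjusted p under 0.05 it was 1 (Bdh1) of 71 genes in all, with 0 of the 50 other pathway and target genes. At a fold change over 2 it was 0 of 83, again with 0 of the 50. Of those 50 genes 5 were called with upper quartile scaling and 8 with DESeq2, which called 688 genes in all. No pairing by replicate number was seen, since same-number libraries had correlated deviations of -0.170 to -0.0104 and other pairs -0.0339 to 0.139. These deviations are taken within groups of 4 libraries, and whether libraries shared a batch was not tested. With the replicate number as a block, edgeR's quasi-likelihood test called 26 genes in all, 0 of the 32 and 0 of the 50, where Ucp2 had a log2 fold change of 0.0068. Leaving out 1 library gave 53 to 345 genes in all, fewest without replicate 2 labelled HFD Inpp4b-/- and most without HFD WT replicate 2. It gave 0 to 3 of the 32 and 0 to 4 of the 50. Each such fit also had fewer libraries, and the cause of these shifts was not tested. The log2 fold changes whose sign turned were all near 0. With upper quartile scaling Cpt1a was at 0.0038 and Acadvl at 0.024. Acadvl was at 0.0036 with the lighter filter, at 0.0038 with at least 10 counts in every library and at 0.0062 at equal depth. Leaving out 1 library put Ppara at -0.22 to 0.077, Acot1 at -0.26 to 0.028, Cpt1a at -0.092 to 0.058, Acadvl at -0.037 to 0.045 and Ucp2 at -0.16 to 0.091. Other pseudocounts moved 0 of 64 permutation p-values across 0.05. With 4 libraries per genotype, a two-sided permutation p cannot go below 0.0286. Pdk4 and Fgf21 had the fewest reads, and the spread between libraries limits both.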
